A study of Mus musculus with 9 samples.

Results

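Cd36, Fabp4, Fabp5, Lpl, Pparg, Cpt1a, Cpt2, Acadm, Acadl and Hadha are genes of fatty acid uptake and oxidation in endothelial cells. They were taken by gene symbol from the deposited expression table, and all 10 were among its 24321 genes. The table holds 9 RNA-seq libraries of meningeal lymphatic endothelial cells (MLECs), in which control cells were compared with cells from mice bearing a brain tumor. Each library was made from 10 cells sorted as negative for CD45 and positive for CD31 and LYVE-1, from the dorsal meninges of 6 male mice that were pooled. The 3 groups had 3 libraries each, and each library is a pool of its own mice. Control mice received PBS. GL261 mice received cells of the GL261 glioma line and were used about 3 weeks later per the labels, and B16 mice received cells of the B16 melanoma line and were used about 2 weeks later. Mice were labelled as 10 weeks old, and both tumor lines are syngeneic to the C57BL/6 strain. The labels and the methods of the study differ on the route of injection. The results section of the study gives 1 time of 2 weeks for all groups and names PDPN as a sorting marker in place of LYVE-1. Its methods give 2 to 3 weeks and staining for LYVE-1, which match the labels.

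Lipoprotein lipase, the product of Lpl, frees fatty acids from lipoproteins at the vessel wall, and the membrane protein CD36 takes them up. Fatty acid binding proteins such as FABP4 and FABP5 carry them in the cytosol, and the nuclear receptor PPARG is a known activator of genes of uptake and storage. For oxidation, the carnitine shuttle brings fatty acids into mitochondria, where beta-oxidation shortens them, a pathway that lymphatic endothelial cells are known to use in growth.

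Values are FPKM, a level that Cufflinks scales to transcript length and library depth, and the table holds no read counts. Read depth is therefore unknown from it, and the number of genes listed above 0 was taken in its place. That number was between 7303 and 8688 in control libraries and between 8736 and 10852 in tumor-associated libraries, so that the groups did not overlap. Depth and tumor status cannot be told apart in this design. In Control 1 and Control 3 a 0 was also listed for Tbp, the gene of a basal transcription factor. A 0 is therefore given as listed at 0 and not as absence. Differences are on the scale log2(FPKM + 1), which understates changes of genes with low FPKM. They were tested with limma over the 9955 genes that reached an FPKM of 1 in 3 or more libraries, with adjustment of p over all of them and a threshold of 0.05. The 10 genes passed this filter, Lpl only through its GL261 libraries and Fabp5 only through tumor-associated ones. Cd36 would not have passed without its control libraries, nor Pparg without its B16 libraries.

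Cd36 fell and Fabp4 rose in tumor-associated MLECs, the joined GL261 and B16 libraries, and the other 8 genes did not pass the threshold. These 2 of 10 genes compare with 391 of 9955 genes tested (3.93%), of which 289 were higher and 102 lower. After quantile normalization the split over all genes was 238 higher and 145 lower. The values of tumor-associated and control libraries did not overlap for the same 2 genes, against 10.5% of all genes tested. The median difference over all genes was 0.20 on the log2 scale with FPKM as deposited, 0.05 after rescaling to the same sum and 0.03 after quantile normalization. Relative to the first of these, the difference was -4.99 for Cd36 and 4.87 for Fabp4.

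**Figure D1:**
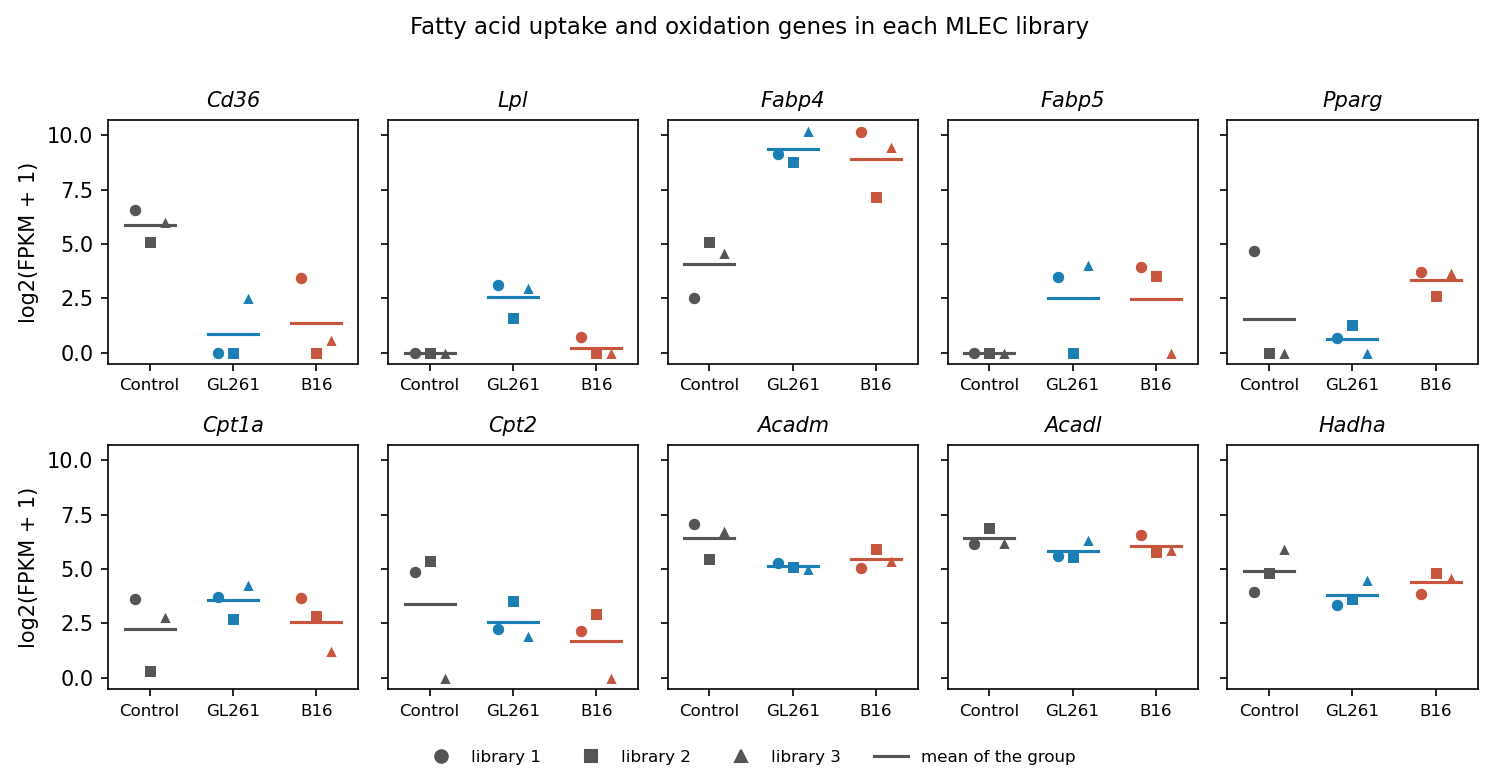
Level of each of the 10 genes in each library, as log2(FPKM + 1), with libraries grouped as control, GL261 and B16 MLECs. Each symbol is 1 library and each line is the mean of a group (n = 3). Cd36 was highest in the 3 control libraries and Fabp4 lowest in them, and Acadm, Acadl and Hadha were above 0 in all 9.

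Among the genes of uptake and binding, Cd36 had an FPKM of 92.6, 33.3 and 63.5 in Control 1, 2 and 3. It was listed at 0 in GL261 1 and GL261 2 and had 4.77 in GL261 3. In B16 MLECs it had 9.87, 0 and 0.526 in libraries 1, 2 and 3. Each control library was thus above each tumor-associated library, and 3 of the 6 tumor-associated libraries were listed at 0. The log2 difference between tumor-associated and control MLECs was -4.79 ± 0.92 (SE, limma, adjusted p = 0.0112), lower in 6 of 6 libraries. It did not pass the threshold without Control 1 (difference -4.46, adjusted p = 0.0509), with a pseudocount of 0.1 (-6.70 ± 1.69, adjusted p = 0.0527) or with the number of detected genes as a covariate, where the difference itself was smaller (-2.50, adjusted p = 0.519). Its adjusted p ranged from 0.0042 to 0.519 over the 19 alternatives.

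Fabp4, a cytosolic fatty acid binding protein that is abundant in capillary endothelium, in adipocytes and in macrophages, had an FPKM of 4.81, 33.2 and 22.7 in Control 1, 2 and 3. Its FPKM was 562, 435 and 1173 in GL261 1, 2 and 3. The B16 libraries 1, 2 and 3 had 1141, 141 and 701. The lowest tumor-associated library, B16 2, was above the highest control library. Mean FPKM was 692 ± 405 in the 6 tumor-associated and 20.2 ± 14.4 in the 3 control libraries (± SD), a ratio of means of 34.2. The log2 difference was 5.08 ± 0.67 (SE, limma, adjusted p = 0.000938), higher in 6 of 6 libraries. It did not pass the threshold with the number of detected genes as a covariate (difference 4.47, adjusted p = 0.163), and its adjusted p ranged from 0.000541 to 0.163 over the 19 alternatives.

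Fabp4 also changed its rank among the 10 genes. It made up 1.26%, 11.2% and 6.89% of their summed FPKM in Control 1, 2 and 3. In tumor-associated libraries its share was 45.4% in B16 2 and between 79.6% and 86.8% in the other 5.

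Fabp5, which encodes a related binding protein, was listed at 0 in the 3 control libraries. It had an FPKM of 10.2, 0 and 15.3 in GL261 libraries 1, 2 and 3, and of 14.4, 10.4 and 0 in B16 libraries 1, 2 and 3. The gene was therefore above 0 in 4 of 6 tumor-associated libraries, and its log2 difference of 2.50 ± 1.04 did not pass the threshold (limma, adjusted p = 0.217). Fabp5 passed the filter only through tumor-associated libraries, which fixes the direction of this difference. The mouse genome (mm9) holds 5 other stretches that match at least 80% of the coding sequence of Fabp5 with 93.6% to 98.3% identity. How reads were shared among such copies was not stated, and the level of Fabp5 is uncertain. No such copy was found for the other 9 genes at an identity of at least 90%.

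Lpl was listed at 0 in the 3 control libraries as well. It had an FPKM of 7.78, 2.02 and 6.80 in GL261 libraries 1, 2 and 3, and of 0.639, 0 and 0 in B16 libraries 1, 2 and 3. Each GL261 library was above each control and each B16 library. The log2 difference between GL261 and control was 2.56 ± 0.65 (limma, adjusted p = 0.0557), and that between GL261 and B16 was 2.33 ± 0.65 (limma, adjusted p = 0.39). Neither passed the threshold, though the first did without a trend (adjusted p = 0.0481), and a filter that Lpl passes only through GL261 libraries fixes the direction of both.

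Pparg, the regulator among the 10 genes, had an FPKM of 24.8 in Control 1 and was listed at 0 in Control 2 and Control 3. It had 0.606, 1.39 and 0 in GL261 libraries 1, 2 and 3, and 12.1, 5.19 and 11.6 in B16 libraries 1, 2 and 3. The B16 libraries were thus all above the GL261 libraries, and the control libraries lay on both sides of them. The log2 difference between GL261 and B16 was -2.69 ± 1.20 and did not pass the threshold (limma, adjusted p = 0.897). Between tumor-associated and control MLECs the difference was 0.43 ± 1.19 (limma, adjusted p = 0.891), and it was -0.35 without Control 2 and without Control 3.

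Cpt1a and Cpt2 encode the outer and inner carnitine palmitoyltransferases of the carnitine shuttle. The FPKM of Cpt1a ran from 0.255 to 11.3 in control MLECs, from 5.54 to 18.4 in GL261 MLECs and from 1.33 to 11.9 in B16 MLECs, and the groups overlapped. Its log2 difference between tumor-associated and control MLECs was 0.83 ± 0.90 (limma, adjusted p = 0.664), and it was -0.12 without Control 2, the control library with the lowest value. Cpt2 had 27.9 and 40.5 in Control 1 and Control 2 and was listed at 0 in Control 3. In tumor-associated libraries it ranged from 0 to 10.5, below 2 of 3 control libraries. Its difference of -1.28 ± 1.15 did not pass the threshold (limma, adjusted p = 0.584).

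The beta-oxidation genes were above 0 in all 9 libraries, and none of the 3 passed the threshold. Acadm, which encodes the acyl-CoA dehydrogenase for chains of medium length, had a mean FPKM of 94.1 ± 46.1 in control, 34.2 ± 3.69 in GL261 and 44.0 ± 13.6 in B16 MLECs (SD, n = 3 each). Control 2, at 43.3, lay within the B16 range of 32.3 to 59.0, whereas each GL261 library, at most 38.2, was below each control library. The log2 difference between tumor-associated and control MLECs was -1.13 ± 0.44 (limma, adjusted p = 0.184). Acadl, the dehydrogenase for long chains, had 87.3 ± 26.3 in control, 57.7 ± 18.1 in GL261 and 68.6 ± 22.4 in B16 MLECs. Hadha, the alpha subunit of the mitochondrial trifunctional protein, had 33.5 ± 22.8, 14.0 ± 6.40 and 21.2 ± 7.11 in the same groups. Their log2 differences, -0.47 ± 0.38 and -0.77 ± 0.58, did not pass the threshold (limma, adjusted p = 0.523 and 0.49). The fitted difference of these 3 genes was negative in the 19 alternatives as well, scalings included, and none of these fits brought it past the threshold.

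In control MLECs the order of mean FPKM was Acadm (94.1 ± 46.1), Acadl (87.3 ± 26.3), Cd36 (63.2 ± 29.6), Hadha (33.5 ± 22.8), Cpt2 (22.8 ± 20.7) and Fabp4 (20.2 ± 14.4, SD, n = 3). Neighbours in this order differed by less than the larger of their SDs, except Cd36 and Hadha, which differed by about as much. In tumor-associated MLECs the order was Fabp4 (692 ± 405), Acadl (63.2 ± 19.2), Acadm (39.1 ± 10.4), Hadha (17.6 ± 7.21) and Cpt1a (9.25 ± 6.09, SD, n = 6). Neighbours among these named genes differed by more than the larger of their SDs. Cpt1a and the next gene, Fabp5 (8.39 ± 6.82), differed by less. Cd36 moved from the third place in control to a mean FPKM of 2.53 ± 4.05 (SD, n = 6) in tumor-associated libraries, with a median of 0.263.

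The tumors were also compared with control MLECs one by one, with the same control libraries in both comparisons. In GL261 MLECs, Cd36 fell (-5.04 ± 1.10, adjusted p = 0.0296) and Fabp4 rose (5.30 ± 0.80, limma, adjusted p = 0.00503). These 2 of 10 genes compare with 347 of 9955 (3.49%), and 4 of 10, with Lpl and Acadm, did not overlap with control, against 22.5% of all genes. Lpl passed the filter only through its GL261 libraries, which fixes its lack of overlap. The Cd36 call in GL261 was lost in 7 of 18 alternatives, among them leaving out Control 1, Control 3, GL261 1 or GL261 2 (adjusted p of 0.0805, 0.0705, 0.129 and 0.123, range over all 18 from 0.0203 to 0.866). In B16 MLECs, Fabp4 rose (4.85 ± 0.80, limma, adjusted p = 0.0101), and Cd36 had a difference of -4.54 ± 1.10 that did not pass the threshold (limma, adjusted p = 0.0585). This 1 of 10 genes compares with 210 of 9955 (2.11%), and 2 of 10 did not overlap with control, against 17.2%. Without B16 3 the adjusted p of Fabp4 was 0.0613, and without B16 1 that of Cd36 was 0.0348, within ranges of 0.00921 to 0.184 and 0.0348 to 0.53 over 18 alternatives.

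Between GL261 and B16, limma called 0 of the 10 genes and 1 of 9955 genes tested (0.01%). That gene was B2m, a subunit of MHC class I molecules, named here after its values were seen, with a log2 difference of 2.37 ± 0.18 (limma, adjusted p = 0.0002). At an unadjusted p under 0.05 there were 2 of the 10 genes, Lpl and Pparg, and 548 of all genes. The groups did not overlap for the same 2 genes, against 13.8% of all genes tested. Lpl passed the filter only through its GL261 libraries, which fixes its lack of overlap, and Pparg would not have passed without its B16 libraries. The difference between both tumors was -0.51 ± 1.10 for Cd36 and 0.45 ± 0.80 for Fabp4, and each of these differences was under its SE. Per the labels the 2 groups also differ in the time after injection, which cannot be told apart from the tumor line.

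A further 72 genes of the same pathway were examined in 7 lists, of which 48 were tested. Of these, 1 was called in tumor-associated MLECs, where it was higher, against 391 of 9955 genes, and the median difference was -0.05, against 0.20 over all genes. An unadjusted p under 0.05 was found for 9 of 48, against 1889 of 9955. In GL261 MLECs 0 of 48 were called and 7 had an unadjusted p under 0.05 (347 and 1687 of 9955), and in B16 MLECs 1, Gpihbp1, was called and 5 had such a p (210 and 1493 of 9955, limma). The count of 0 in GL261 was 2 with a mean FPKM of at least 10 and after rescaling with or without the Ccl21 genes, 1 without a trend and without Control 1, and 0 in the other alternatives. The gene called in tumor-associated MLECs was Hilpda, which encodes a lipid droplet protein that inhibits lipolysis and is induced by hypoxia. It had an FPKM of 40.9, 0 and 0 in Control 1, 2 and 3, and between 15.0 and 160 in tumor-associated libraries. Its log2 difference was 4.41 ± 1.09 (limma, adjusted p = 0.0409). The groups overlapped through Control 1, and the call was lost in 14 of 19 alternatives, with an adjusted p between 0.00142 and 0.213. Leaving out any library other than Control 1 or GL261 3 ended it, with an adjusted p of up to 0.142.

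Gpihbp1 anchors lipoprotein lipase to capillary endothelium and also stands in the list of blood endothelial markers. Its FPKM was 211, 353 and 267 in Control 1, 2 and 3. It was 661, 666 and 145 in GL261 libraries 1, 2 and 3, and 1268, 2128 and 958 in B16 libraries 1, 2 and 3. It rose in B16 MLECs (2.34 ± 0.53, limma, adjusted p = 0.0466, 3 of 3 libraries), and this call was lost in 14 of 18 alternatives, with an adjusted p between 0.0071 and 0.456. Each library but GL261 3 ended it when left out, with an adjusted p of up to 0.16. Between GL261 and B16 its difference was -1.77 ± 0.53 (limma, adjusted p = 0.477).

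None of the other named genes of these lists passed the threshold in the main fit of tumor-associated against control MLECs. Without B16 1, Slc25a20 and Mgll passed it (adjusted p = 0.0302 and 0.0211), and without GL261 3 Gpihbp1 did (adjusted p = 0.0168). In the list of uptake, lipoprotein handling and binding, 8 of 19 genes were tested, with a median difference of -0.81, from -1.93 for the transporter gene Slc27a4 to 1.45 for Gpihbp1. The acyl-CoA synthetases had a median of 0.16 over 4 genes, from -0.72 for Acsl5 to 1.19 for Acsl4. In the carnitine system the median was -0.44 over 4 genes, from -1.72 for Cpt1c to 2.74 for Slc25a20, the carnitine-acylcarnitine carrier. The 13 genes of mitochondrial beta-oxidation, 6 of them higher and 7 lower, had a median of -0.05, from -1.27 for Acadvl to 2.01 for Decr1. Among the higher genes, Acads and Decr1 passed the filter only through tumor-associated libraries, which fixes the direction of their differences. Peroxisomal oxidation had a median of -0.25 over 8 genes, from -0.96 for Abcd3 to 1.06 for Acaa1a, and the sign of these last 2 genes turned in 1 alternative each.

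Of the nuclear receptors and coactivators, 3 of 9 genes were tested and 4 were listed at 0 in the 9 libraries. Ppard was listed at 0 in the 3 control libraries and had an FPKM between 1.81 and 8.50 in the 6 tumor-associated ones. Its log2 difference was 2.29 ± 0.63 (limma, adjusted p = 0.0647), and it passed the threshold with a pseudocount of 0.1 (0.0214) and without a trend (0.029), within a range of 0.0214 to 0.261 over 18 alternatives. Ppard passed the filter only through tumor-associated libraries, which fixes the direction of this difference. Nr1h3, the gene of liver X receptor alpha, had 21.7, 50.3 and 37.4 in Control 1, 2 and 3, and between 3.64 and 21.0 in tumor-associated libraries. The groups did not overlap, and the difference of -1.77 ± 0.65 did not pass the threshold (limma, adjusted p = 0.16). The lipid droplet and lipolysis genes had a median of 0.92 over 8 genes tested, from -1.78 for Mgll, the monoglyceride lipase gene, to Hilpda. Among these 8, Dgat1 had a difference of 2.08 and passed the filter only through tumor-associated libraries, which fixes its direction. Ppard and Dgat1 are both among the pathway genes with an unadjusted p under 0.05 (limma).

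**Figure D2:**
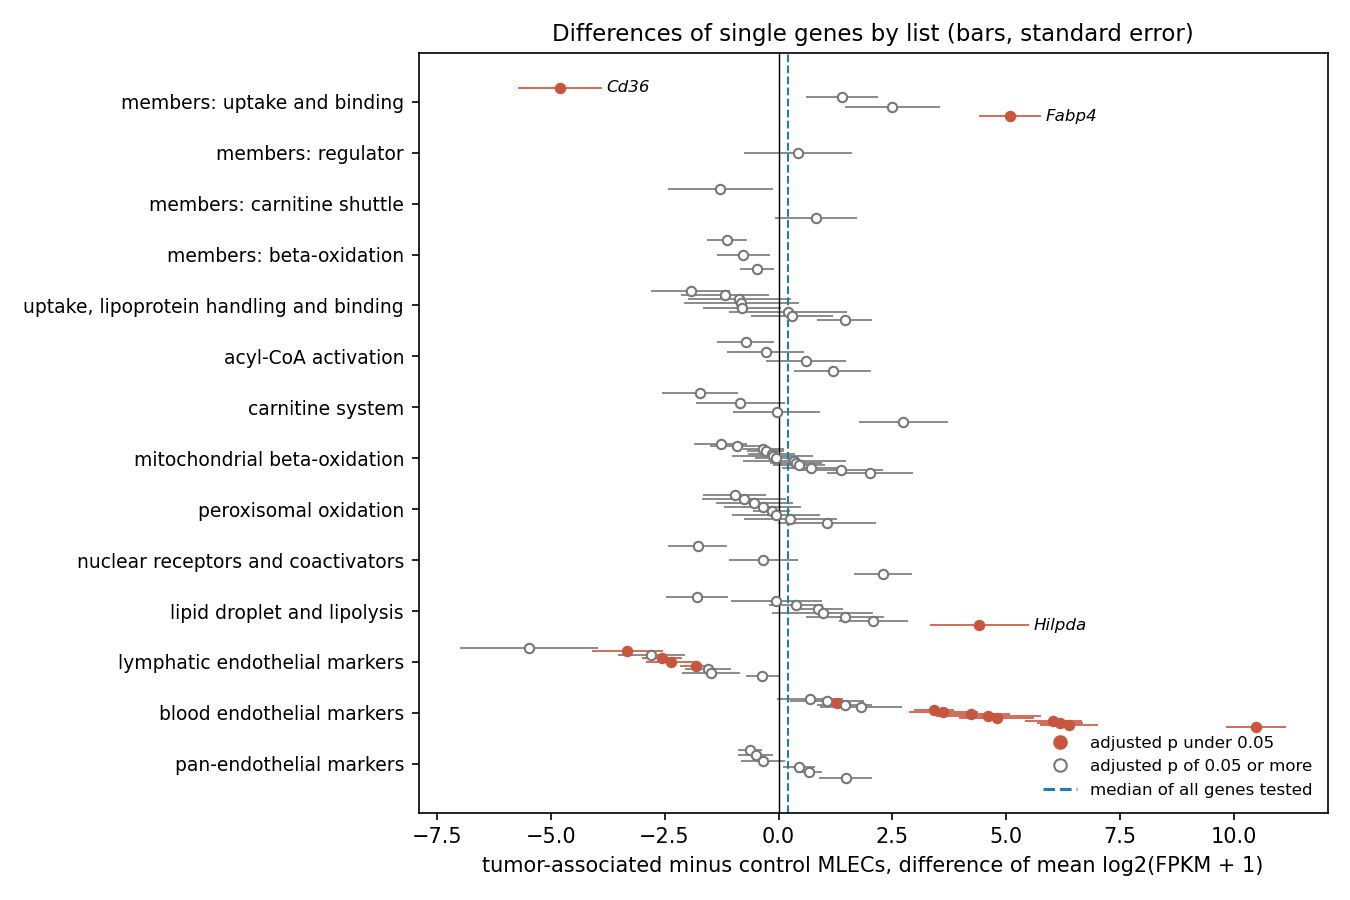
Difference between tumor-associated (n = 6) and control (n = 3) MLECs in mean log2(FPKM + 1), with the standard error from limma as bars, for each tested gene of the 10 (rows named members), of the pathway lists and of 3 lists of endothelial markers. Filled points have an adjusted p under 0.05, and the dashed line is the median of all genes tested (0.20). Cd36, Fabp4 and Hilpda are the filled points above the marker rows, and filled points lie on the negative side for lymphatic and on the positive side for blood endothelial markers.

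Some markers of endothelial subtypes also passed the threshold between tumor-associated and control MLECs, as Cd36 and Fabp4 and 391 of all 9955 genes tested did. All 6 pan-endothelial markers were above 0 in each library. Their summed FPKM was 1926, 2080 and 2095 in Control 1, 2 and 3, it was 1350, 1252 and 1398 in GL261 libraries 1, 2 and 3, and 2236, 1833 and 1882 in B16 libraries 1, 2 and 3. Cldn5, the most abundant of them, fell in GL261 MLECs (-1.01 ± 0.21, limma, adjusted p = 0.0215), and none of the 6 passed the threshold in tumor-associated or B16 MLECs. Of 10 lymphatic endothelial markers, which were above 0 in each library, 9 were tested. In tumor-associated MLECs 4 of them fell (Flt4, Ccl21c, Mmrn1 and Reln), and the median difference of the 9 was -2.35. The same 4 fell in GL261 MLECs, whereas in B16 MLECs 1 of the 9 did, Mmrn1 (limma). The summed FPKM of the 10 markers was 13448, 17058 and 13976 in Control 1, 2 and 3. It was 2089, 1089 and 2957 in GL261 libraries 1, 2 and 3, and 6708, 2140 and 4123 in B16 libraries 1, 2 and 3. Ccl21c had the highest mean over all libraries, though Lyve1 was above it in GL261 2 and GL261 3. Lyve1, the sorting marker, differed by -0.36 ± 0.36 (limma, adjusted p = 0.629), and Prox1, the lymphatic transcription factor, by -2.79 ± 0.73 (limma, adjusted p = 0.0509).

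Of 14 blood endothelial markers, 10 rose in tumor-associated MLECs and the other 4 had a positive difference that did not pass the threshold, with a median of 3.92. Of these 10, Flt1, Ly6c1 and Aplnr passed the filter only through tumor-associated libraries, which fixes the direction of their differences. In GL261 MLECs 8 of the 14 rose, and in B16 MLECs 9 did (limma). The summed FPKM of all 14 was 1101, 1961 and 1269 in Control 1, 2 and 3. It was 9648, 9783 and 6227 in GL261 libraries 1, 2 and 3, and 5867, 9702 and 6909 in B16 libraries 1, 2 and 3. Plvap had the highest mean over all libraries, though Ly6c1 was above it in each GL261 library. Ly6c1 was listed at 0 in the 3 control libraries and had between 393 and 4375 in tumor-associated ones. The part of these markers in the differences of Cd36, Fabp4, Hilpda and Gpihbp1 was not tested. In libraries of 10 cells, fewer cells of a type and less RNA per cell cannot be told apart.

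Fabp4, Cd36, Lpl and Pparg are also known as genes of adipocytes, and Fabp4 and Cd36 as genes of macrophages. The 7 adipocyte markers, Adipoq and Plin1 among them, were listed at 0 in all 9 libraries. Of 12 macrophage markers, Ptprc and Adgre1 were listed at 0 in all 9 libraries, and of the 8 tested the lowest adjusted p in tumor-associated MLECs was 0.101, for Mrc1 (limma, difference -3.01 ± 0.95). In GL261 MLECs Mrc1 passed the threshold (-4.27 ± 0.87, limma, adjusted p = 0.0216) and was lower than in each control library. Of the 8 tested there, 3 had a positive and 5 a negative difference, with a median of -0.32. In B16 MLECs none of the 8 passed. The summed FPKM of this list was 147, 297 and 275 in Control 1, 2 and 3. It was 50.4, 817 and 55.9 in GL261 libraries 1, 2 and 3, and 273, 41.9 and 15.0 in B16 libraries 1, 2 and 3. Lyz2, with the highest mean of them over all libraries, had 324 in GL261 2 and was listed at 0 in Control 1 and B16 3, and the part of macrophage markers in the differences of Cd36 and Fabp4 was not tested. Fibroblast and mural cell markers summed to 531 in Control 1, to at most 47.5 in the other control libraries and to between 0.0851 and 11.4 in tumor-associated libraries. The sum of Control 1, the library with the highest Cd36, came mostly from Acta2 (505). Dcn, the only 1 of these 8 markers that was tested, had an FPKM of 21.8, 44.9 and 15.7 in Control 1, 2 and 3 and of at most 0.146 in tumor-associated libraries. It passed the filter only through control libraries, which fixes the direction of its difference, and the part of fibroblast and mural cell markers in the difference of Cd36 was not tested. The 5 melanoma markers summed to at most 4.07, with Pmel in GL261 2 as the highest.

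The genes whose levels were most like those of Cd36 over the 9 libraries were Epb4.1l2, Scn3a and Cmtm7, with a Pearson r of 0.98, 0.965 and 0.962 on log2(FPKM + 1). Scn3a had an FPKM of 68.2, 45.1 and 46.8 in Control 1, 2 and 3 and of at most 10.3 in tumor-associated libraries. For Fabp4 the most alike genes were Lrg1, Rapgef5 and Pdlim1, with a Pearson r of 0.99, 0.985 and 0.975. Lrg1 had 160, 289 and 313 in Control 1, 2 and 3 and between 950 and 3638 in tumor-associated libraries, with B16 2 again the lowest of these. These are descriptions over libraries that also differ in the number of detected genes and in group.

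In the mm9 annotation (GENCODE M1), Cd36 spans chr5:17287508-17394777 on the minus strand. Fabp4 (chr3:10204347-10208576, minus strand) and Fabp5 (chr3:10012548-10016607, plus strand) lie 188 kb apart, and of these neighbours only Fabp4 passed the threshold. Hadha overlaps Fam59b on the opposite strand, and Acadl overlaps the pseudogene Gm15793 and a U7 small nuclear RNA gene. Gm15793 is on the same strand as Acadl. How reads in such overlaps were assigned is not given in the sources used here, so the levels of Hadha and Acadl are less certain.

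Promoters of 7 of the 10 genes were matched by symbol in a RefSeq table (GRCm38.p6) of 300 bases around each start, with 9 promoters in all, 3 of them of Pparg. Fabp4, Fabp5 and Lpl had no entry. Each promoter was searched on both strands for AGGTCA, the core hexamer bound by nuclear receptors, and for the DR1 element AGGTCANAGGTCA, the form known for PPAR and RXR pairs, with at most 2 mismatches in its 12 defined bases. The hexamer was in 5 of the 9 promoters and in 16.3% of 32817 promoters. These 5 belong to Acadm, Cd36, Cpt1a and Pparg, so that Pparg counts more than 1 time. A DR1 match was in 1 of the 9 and in 3.86% of all. That match was in the promoter of Cd36, the gene of the 10 that fell, with 2 mismatches, and its first base was at -63, counted from the start as 0. The 250 bases before the start of Cd36 (chr5:17835897-17836146, minus strand, GRCm38.p6) are shown 5′ to 3′, with the hexamer and the DR1 match, both on the opposite strand, in capitals.
Cd36: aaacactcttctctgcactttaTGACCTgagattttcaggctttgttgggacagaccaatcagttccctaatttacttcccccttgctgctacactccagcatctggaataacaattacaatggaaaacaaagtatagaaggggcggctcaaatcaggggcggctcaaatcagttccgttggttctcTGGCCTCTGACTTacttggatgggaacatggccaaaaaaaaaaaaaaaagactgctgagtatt
A match of letters is a description and not a binding site.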

How the data were processed

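The authors aligned reads to mm9 with TopHat 2.0.12 and deposited FPKM from Cufflinks 2.2.1 for each gene symbol and library, per the methods and the submitters' processing notes. The annotation is not given in the sources used here. From these FPKM, log2(FPKM + 1) was fitted with limma 3.58.1 (R 4.3.3, lmFit and eBayes, trend on) for the 9955 genes that reached an FPKM of 1 in 3 or more libraries, and p was adjusted over them by Benjamini-Hochberg. GL261 and B16 were joined for tumor-associated MLECs, and the other comparisons used 3 groups with 1 estimate of the spread. The fit was tested on simulated data. The genes and lists were chosen with earlier results of these data known. Genes named from the 7 pathway lists are those past the threshold in any comparison and, per list, those with the largest and the smallest difference between tumor-associated and control MLECs. Tested genes that passed the filter only through tumor-associated libraries are named as well. Alike genes are the 3 tested genes with the highest Pearson r, and marker lists are named by the gene with the highest mean FPKM over all libraries. The sum of 1 marker list is not reported here. Alternatives were a pseudocount of 0.1, no filter, a mean FPKM of at least 10, rescaling to a sum of 1000000 with and without the Ccl21 genes, quantile normalization, eBayes without a trend, a replicate block, the log2 number of detected genes as a covariate, 3 groups for the joined comparison, ROC power above 0.4 and leaving out each library. Coding sequences were compared with mm9 by blastn 2.17.0, and figures were drawn with matplotlib 3.10.9 in Python 3.11.15.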

Additional observations from a re-analysis of the deposited data

Results flagged for a closer look

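Pparg differed in direction between both tumors: relative to the mean log2(FPKM + 1) of control libraries, each GL261 library was lower and each B16 library higher, and the difference between GL261 and B16 was -2.69 on the log2 scale, which did not pass the threshold in limma (adjusted p = 0.897). The mean of control rested on Control 1 alone (FPKM 24.8), since the other control libraries were listed at 0. Tumor line and time after injection cannot be told apart between GL261 and B16.

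Single libraries lay far from the rest of the 6 tumor-associated libraries for 2 of the other pathway genes, relative to the range of those libraries. Slc27a4 had a log2(FPKM + 1) of 2.00 in B16 2 (FPKM 3.01), against an FPKM of at most 0.552 in the other 5. Acsl5 had 2.46 in GL261 3 (FPKM 4.51), against an FPKM between 23.8 and 40.1 in the other 5. Chance flags about 1 in 20 groups, and 24 genes were examined in this way.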

How the results depend on the processing

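Of the 10 genes, the number past the threshold between tumor-associated and control MLECs was 2, and it was 1 with a pseudocount of 0.1, 0 with the number of detected genes as a covariate, 8 by ROC power above 0.4, and between 1 and 2 when a library was left out. ROC power has no error rate at this sample size, and 5137 of all genes passed it. Between GL261 and control it was 2, and it was 1 with a pseudocount of 0.1 or no filter, 0 with the covariate, 3 without a trend, where Lpl was added, and between 1 and 2 when a library was left out. Between B16 and control it was 1, and it was 0 with no filter or with the covariate, and between 0 and 2 when a library was left out. It was 0 between GL261 and B16 in all fits. With no filter more genes are tested (13553), and the covariate differs between the groups. The cause of the other changes was not tested. Over all genes, the counts 391, 347 and 210 (tumor-associated, GL261 and B16 against control) were 254, 218 and 135 with no filter, 11, 6 and 16 with the covariate, and between 245 and 444, 105 and 363, and 69 and 274 when a library was left out. Between GL261 and B16 the count of 1 was 2 after quantile normalization, 6 without a trend and up to 4 when a library was left out. Replicate numbers did not pair the libraries (correlations of deviations between -0.033 and 0.0443), and with the replicate block the number of the 10 genes past the threshold was 2, 2, 1 and 0 in the 4 comparisons, and that of all genes 303, 230, 146 and 1. The share of higher calls among genes past the threshold was 73.9%, 64.4% after rescaling and 62.1% after quantile normalization, and in GL261 74.1%, 60.9% and 63.6%.

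Of 702 alternative values of 40 differences of these genes (10 genes in 4 comparisons), 21 turned in sign or, for Lpl in B16 against control, became 0, all of differences that had not passed the threshold. Leaving out a library gave a range from -0.35 to 1.99 for Pparg and from -0.12 to 1.52 for Cpt1a between tumor-associated and control MLECs. It gave -1.70 to 0.65 for Pparg and -2.55 to 0.13 for Cpt2 between GL261 and control, and 0 to 0.36 for Lpl, -0.62 to 1.03 for Cpt1a and -0.94 to 0.03 for Hadha between B16 and control. Between GL261 and B16 it gave -1.35 to 0.54 for Cd36, -0.44 to 1.07 for Fabp4, -1.23 to 1.27 for Fabp5 and -0.48 to 0.01 for Acadl. With the covariate the difference was 1.57 for Pparg in GL261 against control, 1.04 for Cd36 between GL261 and B16, and 0.07 for Abcd3 between tumor-associated and control MLECs. It was 0.01 for Cpt2 in GL261 with a pseudocount of 0.1, -0.03 for Cpt1a in B16 after quantile normalization, and -0.07 for Fabp5 between both tumors after rescaling with or without the Ccl21 genes. For Acaa1a, leaving out a library gave -0.50 to 2.19 between tumor-associated and control MLECs. The cause of these changes was not tested.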
